A study of Mus musculus with 8 samples.

Results

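The AP-1 transcription factors are dimeric proteins of the basic leucine zipper (bZIP) class that bind a short palindromic DNA element. The 10 genes described here were the Fos family (Fos, Fosb, Fosl1 and Fosl2), the Jun family (Jun, Junb and Jund), and Atf3, Batf and Maff, which encode bZIP proteins of related families. They were picked by gene symbol, and each symbol was found in 1 row of the expression table, which held 38392 genes in all. RNA was sequenced from eosinophils of the bone marrow, where these granulocytes form, and of the small intestine, where they settle. The comparison asked what sets the transcriptome of intestinal eosinophils apart from that at the site of origin. All mice were labelled C57/BL6 wildtype, and the study describes those of this experiment as female. The labels give no age and no treatment.

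Bone marrow cells were sorted as CD11b+Ly6G-Ly6C-SiglecF+SSChi and intestinal cells as CD11b+MHC-II-SiglecF+SSChi, with 4 libraries per tissue. The gates therefore differed between the tissues. The study's methods state that marrow was flushed out and sorted unselected. The intestine was stripped of epithelium, digested with collagenase at body temperature and enriched on CD11b beads before sorting. Tissue and handling changed together and cannot be told apart in any difference below. The study counts mice as its replicates. The labels list 8 separate samples, each with a different number in its title. They do not say whether both tissues came from the same mice. The column names serve as library names, with BM_ for bone marrow (BM_1, BM_3, BM_4, BM_5) and SI_ for small intestine (SI_6, SI_7, SI_10, SI_11).

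Jun proteins bind DNA as dimers with one another or with Fos, ATF, BATF and other partners, whereas Fos proteins need such a partner. Many AP-1 genes are immediate early genes: their transcription starts within minutes of a growth factor, cytokine, adhesion or stress signal, without new protein synthesis, through MAP kinases and factors such as SRF, ELK and CREB. In leukocytes AP-1 dimers act with NFAT, RUNX and IRF proteins on cytokine, protease and adhesion genes, and the same transcripts are known to be induced while tissue is dissociated.

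The libraries held 11508002 to 21289164 reads in genes. No difference in depth was detectable between bone marrow and small intestine (p = 0.286 in a 2-sided exact permutation test with n = 4 per tissue, 0.286 after adjustment over the 3 library measures tested), and the smallest p this design allows is 0.0286. Ribosomal RNA was counted only from the mitochondrial genes mt-Rnr1 and mt-Rnr2 and a gene with a clone-based name. Together they took 21.1% ± 2.01 of bone marrow reads and 12.9% ± 3.93 of small intestine reads (p = 0.0571 by the same exact test, adjusted 0.171). Summed over the 10 markers listed for eosinophils, the libraries held 33422 to 46193 normalised read counts in small intestine, led by Alox15 and Ccr3, and 2703 to 4731 in bone marrow. The sum hides markers that moved in opposite directions: Alox15, Ccr3, Il5ra and Siglecf were higher in small intestine, whereas the granule protein genes Epx (350 ± 40.2 to 20.6 ± 9.06), Prg2 (1831 ± 396 to 147 ± 40.7), Prg3, Ear1 and Ear2 were lower, and the median difference of the list was -1.85. The bone marrow libraries held 495609 to 638763 normalised read counts in the 13 markers of neutrophil precursors, led by Mpo and S100a9, against 810 to 1098 in small intestine. Transcripts of a lineage other than the labelled one were thus abundant in these libraries, which are called bone marrow libraries from here on. No marker of either list was at 0 in all libraries of a tissue. In such bulk samples fewer cells of a type and less RNA per cell cannot be told apart.

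Sequence around the start sites of the AP-1 genes is shown first, because several of these genes are known to carry AP-1 or CREB/ATF elements in their own promoters. RefSeq windows of 300 bases (250 before to 50 after a start, build GRCm38.p6) were given for 9 of the 10 genes, all but Fosl1, in 11 windows. Each motif was searched on both strands. Below, the matched letters are in capitals with 10 bases on each side, written 5′ to 3′ on the strand of the gene. The first 3 lines show the full element TGACNTCA, where N is any base, and the others the shorter TGACG, a CREB/ATF element that the first Maff line also contains. Further TGACG matches, 129 bases upstream in Fos and 122 bases upstream of the other Maff start, are not shown.
Jun, 45 bases upstream, chr4:95052250-95052277, minus strand: agcctcggggTGACATCAtgggctattt
Maff, 29 bases upstream of 1 start, chr15:79347481-79347508, plus strand: gctggggcggTGACGTCActgcatgact
Maff, 45 bases upstream of another start, chr15:79348347-79348374, plus strand: tggagccatgTGACATCAgtgtttgttc
Fos, 66 bases upstream, chr12:85473814-85473838, plus strand: ttccgcccagTGACGtaggaagtcc
Fosb, 60 bases upstream, chr7:19310091-19310115, minus strand: gagttgcgggTGACGcaagcgcggg
Junb, 106 bases upstream, chr8:84978840-84978864, minus strand: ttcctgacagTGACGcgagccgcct
Atf3, 7 bases upstream, chr1:191183326-191183350, minus strand: aatagcattaCGTCAgcctgggatt
Batf, 98 bases upstream, chr12:85686612-85686636, plus strand: tctaacttgtTGACGtttccgccca

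TGACNTCA was found in 3 of the 11 windows, from Jun and Maff, and in 8.83% of all 32851 windows. TGACG, in either orientation, was found in 7 windows from 6 genes, and in 20.8% of all windows. The Batf window held TGACG as the windows of Fos and Fosb did, although Batf alone of the 10 genes was not called (below). The core AP-1 element TGANTCA and the CArG box, the element bound by SRF, were in none of the 11 windows. They were in 7.81% and 1.63% of all windows. These are matches of letters in a short window and no measurement of binding. Elements more than 250 bases upstream of a start lay outside the windows and were not searched.

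Of the 10 AP-1 genes, 9 were higher in small intestine and none was lower. The ratio of mean normalised read counts ran from 5.74 for Jund to 916 for Atf3. The difference in deposited value (small intestine minus bone marrow, on a log2-like scale) passed an adjusted p of 0.05 in limma's test over all genes for each of the 9, with adjusted p-values from 1.8e-07 to 2.3e-04. Batf, at a ratio of 0.796, did not pass. Over all genes 34.9% were called, 22.0% higher and 12.9% lower (8465 and 4937 genes). That balance turned to 4285 higher and 10216 lower with each library centred on its median over all genes. With quantile normalisation it was 5954 and 7032. Centred on the median of genes averaging 10 counts or more, a setting added after the data were seen, it was 7335 and 5008. Among the 16308 genes that averaged 10 normalised read counts or more, as all 10 AP-1 genes did, 63.4% were called, 35.3% higher and 28.1% lower. In the same 9 AP-1 genes every small intestine library lay above every bone marrow library. That was so for 20.3% of all genes and 36.6% of the genes averaging 10 or more, while in 13.9% and 30.9% every small intestine library lay below. The median difference was 5.61 over the 10 AP-1 genes and 0.37 over all genes. Centring each library on its median moved the median over all genes to -0.53, and quantile normalisation moved it to -0.03. The 9 genes remained higher under both.

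**Figure D1:**
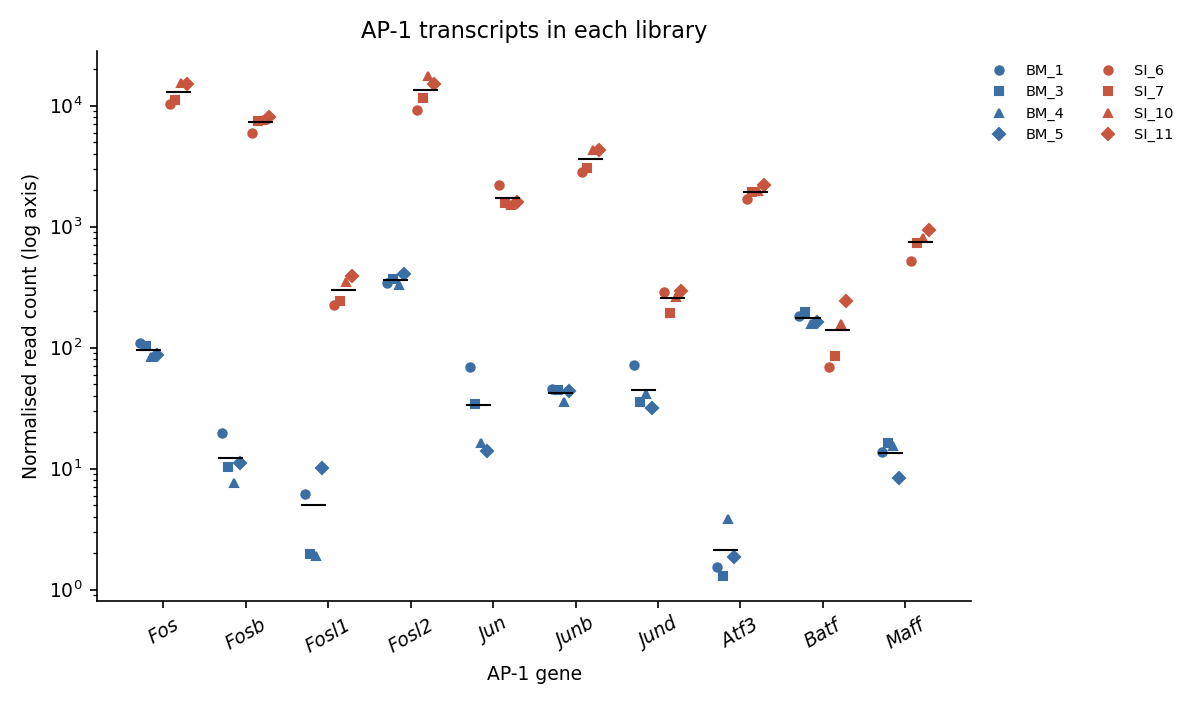
Normalised read count (recovered reads divided by the library's size factor, log axis) of each AP-1 gene in each of the 4 bone marrow (blue) and 4 small intestine (red) libraries, with symbols for libraries and black bars for tissue means. The red points lie above the blue ones for every gene except Batf, whose SI_11 point (243) is above and SI_6 point (69.9) below all bone marrow points.

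In the Fos family, whose proteins are the partners of Jun in many AP-1 dimers, all 4 genes rose. Fos (ENSMUSG00000021250, GRCm38 chr12:85473890-85477273, plus strand, 4 exons), the prototype immediate early gene, had normalised read counts of 110.3, 103, 84.2 and 87.4 in BM_1, BM_3, BM_4 and BM_5. In SI_6, SI_7, SI_10 and SI_11 it had 10278, 11122, 15550.4 and 15109. Its mean rose from 96.2 ± 12.5 to 13015 ± 2701 (SD over 4 libraries each), a ratio of 135 and a difference of 7.01 ± 0.22 (SE, limma adjusted p = 3.3e-07). The lowest intestinal library was thus far above the highest marrow library, and SI_10 and SI_11 were the high ones.

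Fosb (ENSMUSG00000003545, chr7:19302696-19310051, minus strand, 4 exons), which is also known in a truncated form lacking the transactivation domain, had the largest difference of the family. Its counts were 19.9, 10.4, 7.66 and 11.2 in BM_1, BM_3, BM_4 and BM_5, and 5921, 7478, 7661 and 8045 in SI_6, SI_7, SI_10 and SI_11. The mean rose from 12.3 ± 5.31 to 7276 ± 934, a ratio of 592 and a difference of 8.89 ± 0.26 (limma adjusted p = 2.9e-07). That was the 24th largest rise of all genes. The table holds gene totals, so the full and truncated forms were not separated.

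Fosl1 (ENSMUSG00000024912, chr19:5447547-5455946, plus strand, 4 exons) encodes FRA-1, a Fos protein without a strong transactivation domain. Its counts were 6.13, 1.96, 1.91 and 10.2 in BM_1, BM_3, BM_4 and BM_5, from 24 reads in all, and 224.9, 244, 350.1 and 389 in SI_6, SI_7, SI_10 and SI_11. The difference was 5.29 ± 0.38 (limma adjusted p = 1.8e-05). Ccdc85b overlaps Fosl1 on the opposite strand and moved the other way, from 11.2 ± 3.86 to 4.96 ± 0.631 (difference -0.80, limma adjusted p = 0.023). Per kb of exon Fosl1 was the lowest family member in small intestine, and it had at most 10.2 counts in any marrow library.

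Fosl2 (ENSMUSG00000029135, chr5:32135801-32157842, plus strand, 4 exons) encodes FRA-2, the other member of that kind. Its counts were 345.5, 366.5, 330.1 and 409 in BM_1, BM_3, BM_4 and BM_5. In SI_6, SI_7, SI_10 and SI_11 it had 9177, 11682, 17685 and 15033. The mean rose from 363 ± 34.2 to 13394 ± 3733, and the difference of 5.15 ± 0.24 (limma adjusted p = 2.3e-06) was the smallest of the family, though Fosl1 was smaller without BM_3 (5.10 against 5.16) or BM_4 (5.09 against 5.11) and at a pseudocount of 5 (4.98 against 5.15).

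The 3 Jun family genes rose too, but not by like amounts. Jun (ENSMUSG00000052684, chr4:95049034-95052222, minus strand, 1 exon), the strongest transactivator of the family and the substrate of the JNK kinases, had counts of 69, 34.6, 16.3 and 13.9 in BM_1, BM_3, BM_4 and BM_5. It had 2199.5, 1571, 1503 and 1604 in SI_6, SI_7, SI_10 and SI_11. The mean rose from 33.4 ± 25.4 to 1719 ± 323 (difference 5.76 ± 0.44, limma adjusted p = 2.6e-05). Jun was the only one of the 10 genes that was highest in SI_6. On the deposited scale its SD was 0.95 in bone marrow, where BM_1 was high, and 0.25 in small intestine.

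Junos, an antisense transcript annotated over Jun, moved the other way. It fell from 379 ± 26.3 normalised read counts to 26.2 ± 6.50 (difference -3.71, limma adjusted p = 6.4e-06). The strand setting of the counting is not given in the sources used here, and without it reads from Jun and Junos where they overlap cannot be told apart. The same applies to Fosl1, Junb, Jund and Atf3, which also have a gene annotated over them on the opposite strand.

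Junb (ENSMUSG00000052837, chr8:84974484-84978718, minus strand, 1 exon), a weaker activator that can oppose Jun, had the largest rise of the Jun family. Its counts were 45.2, 44.3, 35.4 and 43.7 in BM_1, BM_3, BM_4 and BM_5, and 2856, 3037, 4342 and 4299 in SI_6, SI_7, SI_10 and SI_11. The difference was 6.29 ± 0.22 (limma adjusted p = 6.1e-07). On the deposited scale the SD was 0.15 in bone marrow, with BM_4 the low library, and 0.32 in small intestine. Prdx2, which overlaps Junb on the opposite strand, had 305 ± 36.8 in bone marrow and 284 ± 68.7 in small intestine (limma adjusted p = 0.692).

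Jund (ENSMUSG00000071076, chr8:70698949-70700616, plus strand, 1 exon), known as the member that is expressed most steadily in resting cells, had the smallest rise of the 9 genes. Its counts were 72, 35.9, 41.1 and 31.6 in BM_1, BM_3, BM_4 and BM_5, and 288.2, 194, 261.5 and 294 in SI_6, SI_7, SI_10 and SI_11. The mean rose from 45.2 ± 18.3 to 259 ± 45.8, a ratio of 5.74 and a difference of 2.48 ± 0.28 (limma adjusted p = 2.3e-04). That was the 2934th largest rise of all genes. Gm11175 is annotated over Jund on the opposite strand.

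Atf3 (ENSMUSG00000026628, chr1:191170296-191218039, minus strand, 4 exons), a stress-induced factor that represses many inflammatory genes as a homodimer, had the largest ratio. Its counts were 1.53, 1.30, 3.83 and 1.86 in BM_1, BM_3, BM_4 and BM_5, which rested on 10 reads in all, and 1695, 1928, 1973 and 2208 in SI_6, SI_7, SI_10 and SI_11. The difference was 8.57 ± 0.22 (limma adjusted p = 1.8e-07), the 38th largest rise of all genes. Per kb of exon the Atf3 count in BM_5 was 1.22 times the density of reads in 1070 olfactory receptor genes, which are known from sensory neurons and not from granulocytes, so in that library Atf3 lay close to that background. In the other marrow libraries the lowest AP-1 gene was 4.34 to 25.9 times the olfactory density, and in small intestine it was 115 to 684 times.

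Maff (ENSMUSG00000042622, chr15:79346621-79359076, plus strand, 3 exons) encodes a small MAF protein, which lacks a transactivation domain and pairs with itself or with factors such as NFE2L2. Its counts were 13.8, 16.3, 15.3 and 8.37 in BM_1, BM_3, BM_4 and BM_5, and 518.5, 729, 809.5 and 939 in SI_6, SI_7, SI_10 and SI_11. The difference was 5.46 ± 0.26 (limma adjusted p = 2.5e-06). Its mean thus rose from 13.4 ± 3.54 to 749 ± 176, with BM_5 and SI_6 the low libraries of their groups.

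Batf (ENSMUSG00000034266, chr12:85686669-85709087, plus strand, 3 exons), which pairs with Jun proteins and, in lymphocytes and dendritic cells, binds with IRF4 or IRF8, was the exception. Its counts were 183, 196, 158 and 163 in BM_1, BM_3, BM_4 and BM_5, and 69.9, 86, 157.5 and 243 in SI_6, SI_7, SI_10 and SI_11. The intestinal libraries straddled the marrow ones: SI_11 was above all 4, and the other three were below all 4, SI_10 by less than 1 count. The mean of the marrow libraries was 175 ± 17.7 and that of the intestinal ones 139 ± 79.1, with a difference of -0.48 ± 0.38 (95% interval -1.35 to 0.38, limma adjusted p = 0.378). With each library centred on its median over all genes, the difference was -1.38 and passed (limma adjusted p = 0.0133). Without SI_6 and SI_7 it was 0.16 ± 0.21 (limma adjusted p = 0.624). Irf4 had 64 ± 20.5 in bone marrow and 71.8 ± 42.8 in small intestine (limma adjusted p = 0.996). Irf8 had 182 ± 30.5 and 142 ± 109 (limma adjusted p = 0.369).

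**Figure D2:**
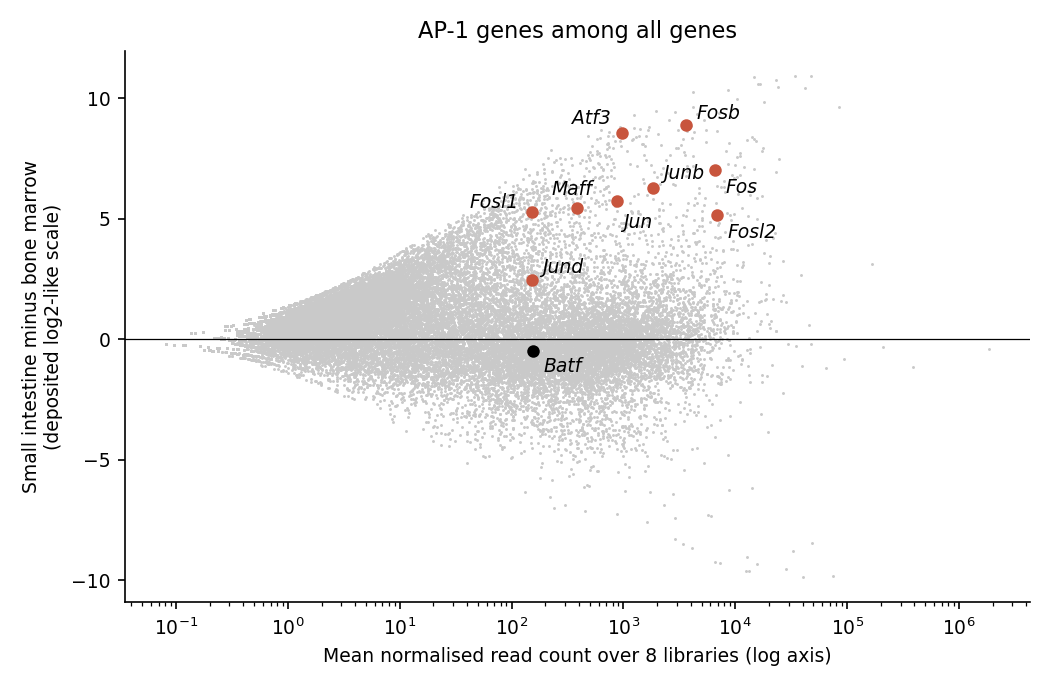
Difference in deposited value (small intestine minus bone marrow, log2-like scale) against the mean normalised read count over the 8 libraries (log axis), with each of the 38392 genes in grey, the 9 AP-1 genes called higher in red and Batf in black. The red points lie between 2.48 (Jund) and 8.89 (Fosb), and Batf lies at -0.48.

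The order of the 10 genes also differed between the tissues. Levels of different genes were compared as normalised read counts per kb of exon. In bone marrow Batf was highest in 4 of 4 libraries, at 124 ± 12.6, and Fos (40.9 ± 5.31), Fosl2 (37.5 ± 3.54), Jund (27.1 ± 11.0), Junb (18.3 ± 1.98), Jun (10.5 ± 7.97), Maff (5.18 ± 1.36), Fosl1 (2.49 ± 1.95), Fosb (1.97 ± 0.850) and Atf3 (0.989 ± 0.536) followed. The ranges of Batf and Fos did not overlap. Those of all other neighbours in this order did, so their order is not fixed by these libraries. The first place of Batf depends on the division by length. Without it Fosl2 was above Batf in each bone marrow library (330 to 409 counts against 158 to 196).

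In small intestine Fos was highest in 4 of 4 libraries, at 5534 ± 1148 per kb, and ranked 65th of all genes, against 8479th in bone marrow. Junb (1579 ± 346), Fosl2 (1384 ± 386), Fosb (1165 ± 150), Atf3 (906 ± 97.6), Jun (539 ± 101), Maff (289 ± 67.9), Jund (156 ± 27.4) and Fosl1 (149 ± 39.3) followed, and Batf was lowest in 4 of 4 libraries, at 98.9 ± 56.2. The ranges did not overlap between Fos and Junb, Atf3 and Jun, Jun and Maff, or Maff and Jund. They overlapped for all other neighbours. Atf3 and Fosb, which were at the bottom in bone marrow, were thus in the upper part of the order in small intestine. Without division by length Fosl2 was above Fos in SI_7 (11682 against 11122 counts) and SI_10 (17685 against 15550). Batf was still lowest in each small intestine library.

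**Figure D3:**
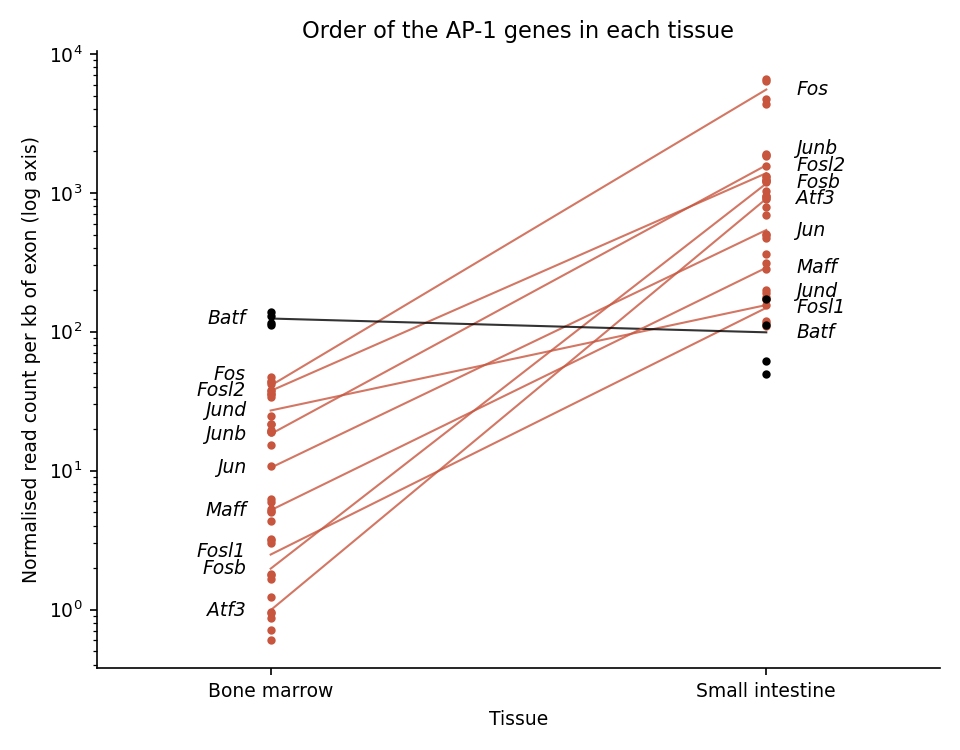
Normalised read count per kb of exon (log axis) of the 10 AP-1 genes in the 4 libraries of each tissue (points), with lines joining the tissue means. By this measure Batf (black) was the highest gene in bone marrow (124) and the lowest in small intestine (98.9), and the red lines of the other 9 genes rise.

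Within the Fos family the mixture of transcripts shifted from Fosl2 towards Fos and Fosb. By counts per kb of exon, Fos made up 49.4% ± 4.40 of the marrow family and 67.2% ± 1.45 of the intestinal one (SD over 4 libraries each). Fosl2 made up 45.4% ± 3.83 and 16.6% ± 1.52. Fosb made up 2.34% ± 0.852 and 14.4% ± 1.73. For these 3 genes the libraries of the tissues did not overlap. Fosl1 made up 2.92% ± 2.20 and 1.79% ± 0.160, and its ranges overlapped. Without division by length the Fos and Fosl2 shares were 20.3% and 76.2% in bone marrow and 38.4% and 39.0% in small intestine, so the directions held but Fos was no longer the leading member.

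Within the Jun family Jund had the largest mean share in bone marrow and Junb in small intestine. Jund was above Junb in 3 of 4 bone marrow libraries. Jund made up 48.1% ± 5.89 of the marrow family and 6.85% ± 0.985 of the intestinal one, and Junb 34.9% ± 8.97 and 68.9% ± 7.20, in both cases without overlap. Jun made up 17.1% ± 7.46 and 24.2% ± 6.46, and its ranges overlapped. Without division by length Jund and Junb were about level in bone marrow, at 37.4% and 37.5%.

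Summed per kb, Fos family transcripts rose from 82.9 ± 7.42 to 8231 ± 1681, a ratio of 99.3. Jun family transcripts rose from 55.9 ± 19.4 to 2274 ± 306, a ratio of 40.7. The ratio of Fos family to Jun family transcripts per kb ran from 1.05 to 2.04 over the marrow libraries and from 3.03 to 3.91 over the intestinal ones. Without division by length the ratio was higher in BM_5 than in SI_6, so on that scale the tissues overlapped. These shares and ratios are given as values with no test.

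**Figure D4:**
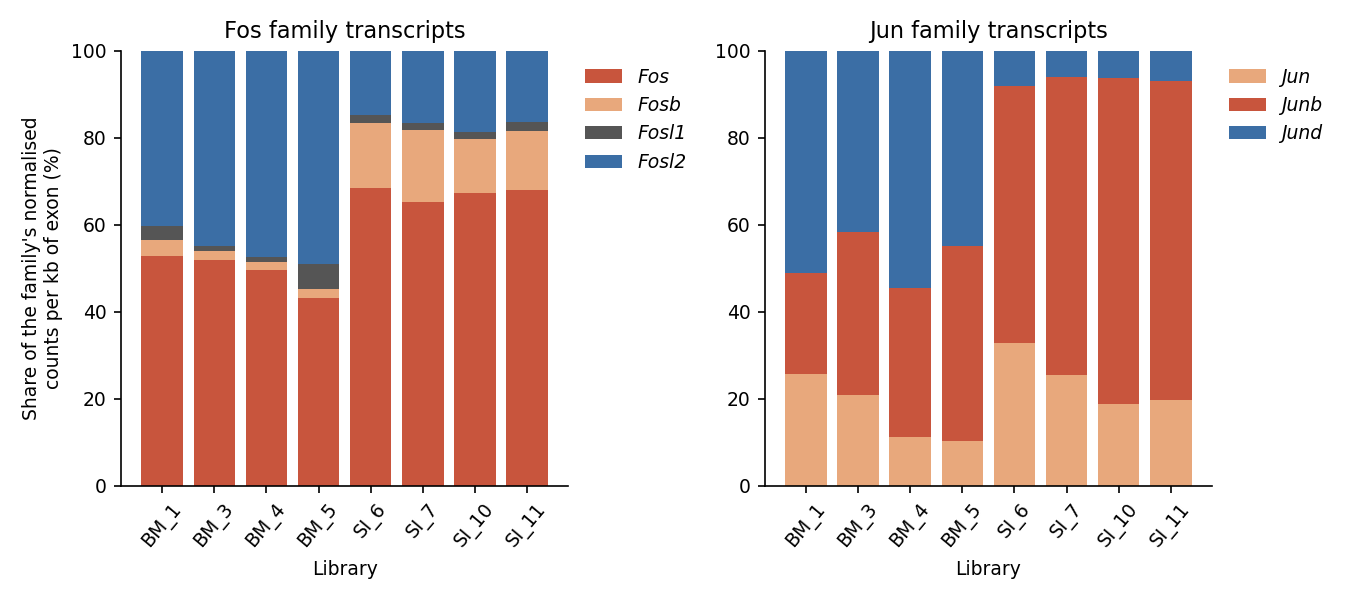
Share of each gene (%) in the summed normalised read counts per kb of exon of the Fos family (left) and the Jun family (right), 1 stacked bar per library. The Fosl2 share is 40.2% to 49.0% in the bone marrow bars and 14.9% to 18.6% in the small intestine bars, and the Jund share is 41.7% to 54.6% in the bone marrow bars and 6.03% to 8.21% in the others.

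Among small intestine libraries, SI_6 was the lowest for 8 of the 10 AP-1 genes, and SI_11 the highest for 6 and SI_10 for 3. SI_6 also held the most epithelial reads. The 14 epithelial markers, led by Muc2 and Lyz1, summed to 56527 normalised read counts in SI_6, 25374 in SI_7, 7637 in SI_10 and 9376 in SI_11, and to 359 to 665 in bone marrow. All 14 were called higher in small intestine, and Tff3 was at 0 in all bone marrow libraries. SI_6 was thus the richest in epithelial markers and the lowest for most AP-1 genes, while Jun was highest there. The part of epithelial cells in the AP-1 differences was not tested. Without SI_6 and SI_7, an alternative added after the data were seen, the same 9 AP-1 genes were called higher.

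Markers of other cells moved with the tissue as well. The 13 macrophage and dendritic cell markers summed to 3414 to 13733 in small intestine, highest in SI_6, and 910 to 1098 in bone marrow, with 10 called higher. The 7 B and plasma cell markers summed to 3962 to 26246 and 249 to 430 (Igha and Jchain among those called higher, Cd79b among those lower), the 8 fibroblast markers to 192 to 791 and 26.8 to 85.5 (7 higher), and the 7 T cell markers to 165 to 223 and 45.9 to 93.0 (Cd3e, Cd4 and Cd8a higher). The 7 endothelial markers summed to 7446 to 9868 and 382 to 496 (7 higher), nearly all of it Pecam1, at 8162 ± 1127 and 384 ± 64.0. The 8 erythroid markers summed to 45.0 to 103 in small intestine and 853 to 1063 in bone marrow (6 lower). The 8 mast cell and basophil markers summed to 583 to 1862 and 2711 to 3714, nearly all of it Kit, at 1189 ± 573 and 3031 ± 430. Of these markers Mcpt1 was called higher, and Cpa3, Mcpt8, Kit and Ms4a2 lower. No marker of these other lists was at 0 in all libraries of a tissue. The part of these cells, and of the neutrophil precursor transcripts in bone marrow, in the AP-1 differences was not tested.

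Of 36 other bZIP genes, 14 were called higher, 10 lower and 12 neither, with a median difference of 0.13. These shares, 38.9% and 27.8%, were near the 35.3% and 28.1% of all genes that averaged 10 counts or more, as each of the 36 did. With each library centred on its median, 9 were higher and 17 lower, and with voom on the recovered reads 13 and 17. The largest rises were Batf3, a partner of Jun in dendritic cells, from 0.232 ± 0.465 to 71.3 ± 16.2 normalised read counts on 1 bone marrow read, Crem, a cAMP-responsive factor with an inducible repressor form (46 ± 9.24 to 1634 ± 618, difference 4.97 ± 0.32), and Cebpb, a factor of emergency granulopoiesis and inflammation (29.5 ± 9.62 to 737 ± 237, difference 4.47 ± 0.33).

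The largest falls in that list were Cebpa, which drives granulocyte commitment (-3.47 ± 0.36), Cebpd (-3.43 ± 0.21) and Hlf, a factor of immature haematopoietic cells (-3.06 ± 0.28). Among direct partners of the AP-1 genes, Jdp2, a repressor that pairs with Jun, had 376 ± 17.0 in bone marrow and 252 ± 96.1 in small intestine (limma adjusted p = 0.118). Batf2, a relative of Batf, rose from 0.472 ± 0.545 to 36.9 ± 26.3 (limma adjusted p = 3.5e-04). The other small MAF genes moved in opposite directions, Mafk by 2.37 ± 0.17 and Mafg by -0.69 ± 0.17.

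Transcripts of kinases and factors upstream of AP-1 were counted next. Of 36 genes for MAP kinases, their activators and substrates, and SRF, ELK, MRTF and MEF2 factors, 11 were called higher, 5 lower and 20 neither, and the median difference was 0.08. The shares were 30.6% higher and 13.9% lower, against 35.3% and 28.1% of genes averaging 10 counts or more. Centred on the library median, 1 was higher and 13 lower, and with voom 11 and 13. The largest rises were Map3k14, the NF-kappaB-inducing kinase (2.07 ± 0.19), Elk3 (1.63 ± 0.20) and Mef2a (1.58 ± 0.17). Among the falls were Mef2c (-2.44 ± 0.41) and Mapk14, which encodes p38-alpha (-1.66 ± 0.18), and, named after their values were seen, Mapkapk3 (-0.72) and Rps6ka1, which encodes a Fos kinase (-0.60). Mapk8 and Mapk9, which encode the JNK kinases, had differences of 0.25 ± 0.18 (limma adjusted p = 0.337) and -0.24 ± 0.21 (limma adjusted p = 0.453). Srf had -0.34 ± 0.20 (limma adjusted p = 0.235). These are transcript levels and do not measure kinase activity.

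Of 20 genes widely described as AP-1 targets, 13 were called higher, 1 lower and 6 neither, with a median difference of 2.40 (65.0% higher, against 22.0% of all genes and 35.3% of those averaging 10 counts or more), and 11 higher and 2 lower with each library centred on its median. Ptgs2, the inducible cyclooxygenase, rose from 22.2 ± 3.75 to 45925 ± 11724 normalised read counts (difference 10.77 ± 0.24). The cytokine gene Il6 rose from 1.53 ± 1.04 to 1007 ± 576 (difference 7.78 ± 0.51). Plau, the urokinase-type plasminogen activator, fell by 1.81 on that scale, from 128 ± 16.3 to 36.0 ± 16.3 (limma adjusted p = 0.0016). The 6 others had differences from -0.49 to 1.45. Among them were genes with few reads in both tissues.

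The early response and heat shock genes that, like Fos and Jun, are known to be induced in dissociated tissue were counted as another list. Of its 30 genes 23 were called higher, 5 lower and 2 neither, with a median difference of 3.13 (76.7% higher, against the same 22.0% and 35.3%), and 18 higher and 7 lower with each library centred on its median. Dusp1, the phosphatase that ends MAP kinase signals, rose by 7.93 ± 0.27, from 144 ± 44.9 to 35350 ± 6983. Nr4a1, an early response nuclear receptor, rose by 7.44 ± 0.34, and Ppp1r15a, a phosphatase subunit of the stress response, by 7.11 ± 0.27. The largest falls were Hsp90ab1 (-1.49 ± 0.22), Hspa8 (-1.45 ± 0.20) and Hspe1 (-1.30 ± 0.35), all chaperone genes. Named after their values were seen, Hsp90aa1 (-1.16) and Dnajb1 (-0.76) were the 2 other falls, and Hspa5 (-0.41) and Hsph1 (-0.37) were not called.

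Split by kind of gene after the values were seen, the 18 early response genes were all called higher, by 0.95 to 7.93, and the 12 heat shock and chaperone genes were 5 higher (Hspa1a, Hspa1b, Hspb1, Dnaja1 and Dnajb4), 5 lower and 2 neither, with a median difference of -0.39. The 9 AP-1 genes that rose thus moved in the direction of these early response genes, while the heat shock genes moved both ways. How far the digestion of the intestine accounts for either was not tested.

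Of 17 partners and regulators, 8 were called higher, 2 lower and 7 neither, with a median difference of 0.40 (47.1% higher and 11.8% lower, against 35.3% and 28.1% of genes averaging 10 counts or more). Centred on the library median, 1 was higher and 5 lower. Nfatc2, which binds composite sites with Fos and Jun, rose from 48.0 ± 6.25 to 636 ± 96.4 (difference 3.62 ± 0.20). Runx3 (1.79 ± 0.20) and Nfatc1 (1.65 ± 0.18) followed. The 2 falls were Ets1, a partner of AP-1 at composite ETS sites (-1.29 ± 0.23), and Cops5, first described as a Jun coactivator (-1.02 ± 0.17).

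**Figure D5:**
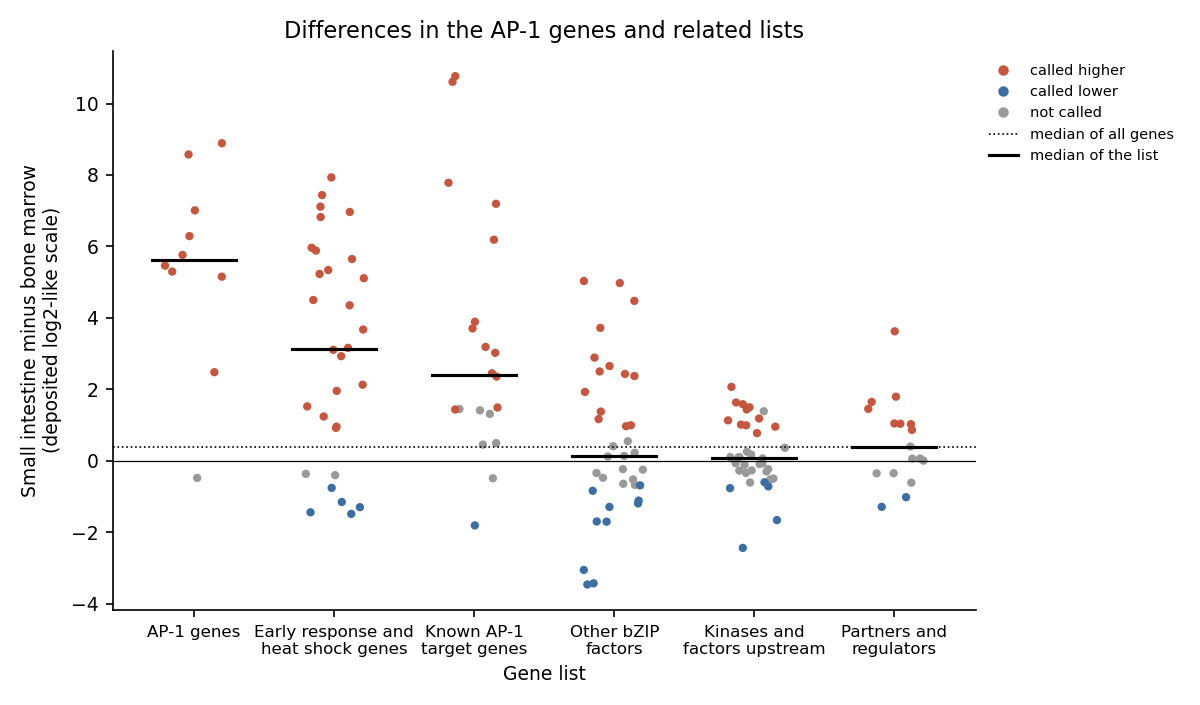
Difference in deposited value (small intestine minus bone marrow, log2-like scale) for each gene of the AP-1 set and of 5 related lists, coloured by whether limma called it, with a bar at each list's median and a dotted line at the median of all genes (0.37). The medians are 5.61 for AP-1, 3.13 for early response and heat shock genes, 2.40 for known targets, 0.13 for other bZIP factors, 0.08 for upstream kinases and factors, and 0.40 for partners and regulators.

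For each AP-1 gene the most similar gene was found among 8690 other genes with a mean of at least 100 normalised read counts, by the root mean square difference of gene-centred deposited values over the 8 libraries. The closest matches were Btg2, an antiproliferative early response gene, for Maff (0.148), Nap1l5 for Fosl2 (0.149), Plek, the PKC substrate pleckstrin, for Junb (0.162) and Tspan13, a tetraspanin, for Fos (0.166). Mvp, the major vault protein, was closest to Jund (0.214), Jakmip1 to Fosl1 (0.249), Ero1l, an oxidase of the endoplasmic reticulum, to Batf (0.258) and Slc11a1, a metal transporter of phagosomes, to Atf3 (0.292). Fosb and Jun had the most distant nearest genes, Hic1 (0.342) and Meis1 (0.443). Likeness here is mostly that of the tissue difference, since 4 libraries of each tissue enter it.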

How the data were processed

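RNA of 4 libraries per tissue was amplified to cDNA and sequenced from a single end. The authors aligned reads to GRCm38 with a public pipeline and counted them per gene. The values deposited by the authors are variance stabilised with DESeq2, on a log2-like scale (R 4.0.3 per the labels). The strand setting is not given in the sources used here.

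The transformation was inverted from its lowest value. Multiplied by a size factor per library (0.721 to 1.53), the inverted values were whole reads within 0.05 for 100% of genes in each library. Normalised read counts are these reads divided by the size factor. Depth limits precision mainly for Atf3 and Fosl1 in bone marrow.

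Genes were compared with limma 3.58.1 (R 4.3.3) on the deposited values, all 8 libraries entering, with a constant prior and neither covariate nor filter. P-values are 2-sided and were adjusted by Benjamini-Hochberg over 38392 genes, threshold 0.05. The authors fitted DESeq2 on counts, and limma took its place because the unit is log2. Errors are SD for levels and SE for differences. Single library values were tested with exact permutation tests over 70 assignments. Coordinates, exon lengths (merged exons) and overlaps come from GENCODE M21, in which all 38392 identifiers were found. Motifs were searched in RefSeq promoter windows (GRCm38.p6). The test was tested on simulated data. The rest used Python 3.11.15 (pandas 2.3.3, numpy 2.4.6, matplotlib 3.10.9, scipy 1.17.1).

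The 10 AP-1 genes and all lists were chosen with earlier results of these data known. Named were all 10 AP-1 genes, the 3 largest rises and falls called in each list, list genes that pair with or phosphorylate an AP-1 protein, the most abundant 2 markers of a cell type per tissue (where a list is led by them) and the nearest gene to each AP-1 gene among symbols that are not predicted genes or clones. Some genes this rule names are not reported here. Column names gave the tissue but matched no single sample. Within each tissue every 2 libraries differed by more than counting noise. Alternatives were other scalings, priors, pseudocounts (1 and 5), a minimum mean of 10, voom, a test against a difference of 1, other gene lengths and leaving out libraries.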

Additional observations from a re-analysis of the deposited data

Results flagged for a closer look

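A library was set apart from the other 3 of its tissue when its gap to the nearest, divided by the group's range, passed Dixon's 95% critical value for groups of 4. Of 66 groups examined 4 passed, where chance alone passes about 5%. The deposited value of Jun in small intestine was highest in SI_6 (0.83, barely past), the library in which most other AP-1 genes were lowest. Junb in bone marrow was lowest in BM_4 (0.86). The density of reads in olfactory receptor genes was highest among bone marrow libraries in BM_5 (0.846). The summed erythroid markers were lowest among small intestine libraries in SI_11 (0.832). Without BM_5 and SI_10, the libraries of each tissue with the most olfactory reads, the count of AP-1 genes called higher was 9.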

How the results depend on the processing

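Under each of the settings tried, 9 AP-1 genes were called higher, and leaving out each library in turn gave 9 higher and 0 lower every time. Over all settings the smallest difference among these 9 was 1.58 (Jund) and the largest adjusted p 0.00628. Batf ran from -1.38 to -0.22 except without SI_6 and SI_7 together, chosen after seeing the data, where it turned to 0.16. The log2 ratio of means of Atf3 was 9.84.

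With each library centred on its median, 1 AP-1 gene was lower (Batf), 4285 genes were higher and 10216 lower (29.5% of calls higher against 63.2%), other bZIP factors were 9 and 17, upstream kinases and factors 1 and 13, targets 2 lower, and partners 1 and 5, 6 in all. Quantile normalisation gave 45.8% of calls higher and 4 partners lower. Centring on the median of genes averaging 10 counts or more gave 59.4% of calls higher. Voom gave 17, 13 and 5 lower for other bZIP, upstream and partner genes. Tested against a difference of 1, 5076 genes were called (3460 higher, 1616 lower), with 13 other bZIP (9 and 4), 4 upstream (2 and 2), 8 targets (8 and 0), 3 partners (3 and 0) and 0 early response or heat shock genes lower. Leaving out a library gave 3 to 7 upstream and 3 to 6 early response or heat shock genes lower, with 3 in the former without BM_1 or BM_4 and 3 in the latter without BM_1 or BM_3.

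By longest transcript, Fos was 42.6% of its family in bone marrow and 59.9% in small intestine, Fosl2 51.9% and 19.6%, and in small intestine Fosb 18.9%, Fosl1 1.56% and Jund 5.78%. Without length, Fos was 20.3% and 38.4%, Fosl2 76.2% and 39.0%, Jun 25.1% and 31.1%, Jund 37.4% and 4.62%, and in small intestine Fosb 21.8% and Fosl1 0.884%. These shares differed from those per kb of merged exon only in the length used. By each length the libraries of the tissues did not overlap for Fos, Fosb, Fosl2, Junb and Jund. The cause of the changes under the other settings was not tested. No paired analysis was possible because no number links a bone marrow column to a small intestine column.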
